A study of Mus musculus with 6 samples.

Results

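The 10 longest stretches of reduced chromatin accessibility on the mouse autosomes were examined in HAT1-/- relative to HAT1+/+ primary mouse embryonic fibroblasts (MEFs). Accessibility was measured by ATAC-Seq, in which a transposase inserts sequencing adapters into DNA that is already accessible. The domains were chosen by the difference between genotypes itself. For each tested site of chromosomes 1 to 19, the log2 level in HAT1+/+ cells was subtracted from the log2 level in HAT1-/- cells, and the differences were averaged over 25 consecutive sites centred on that site. Runs of sites whose moving mean was below -0.58, with no gap over 1 Mb, were kept where they spanned 4 Mb or more. This rule found 10 domains, out of 256 runs in all, and they hold 826 of the 225604 autosomal sites tested. They span 61.8 Mb on 5 chromosomes, and 4 of them, with 28.6 Mb and 364 sites, lie on chromosome 1, where they cover 14.7% of the chromosome. Of the 10, 9 are described one by one, and all 10 enter the counts, means and ranges over domains.

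The cells were primary MEFs on a C57bl6 strain background, isolated from mid-gestation embryos and grown in serum-supplemented medium, with no treatment named. The HAT1 WT group has 3 lines (HAT1+/+) and the HAT1 KO group has 3 lines (HAT1-/-), so the groups differ in the HAT1 genotype by their labels. The data used are the authors' mean log2 normalized read counts of each genotype at each site, without a value for a single line. No test between genotypes could therefore be made, every value below is a mean of a genotype as the authors deposited it, and spreads are given over domains, domain ends or sites.

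HAT1 is the histone acetyltransferase that acetylates newly synthesized histone H4 on lysines 5 and 12 before it is deposited behind the replication fork. ATAC-Seq reads mark open DNA, such as promoters and enhancers. Long AT-rich, gene-poor stretches of mammalian chromosomes are commonly packed as heterochromatin, many of them at the nuclear lamina, and accessible sites are sparse there. Genes of neuronal adhesion proteins often lie in such gene deserts, since their introns and regulatory regions are very long.

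The sequences below contrast sites with the lowest difference of their domain with 2 strong promoters. Most members are of neither kind, since 529 of 826 windows lack the AP-1 word marked below and the median window holds 1 CpG dinucleotide. The first 4 are the central 200 bases (GRCm38, the assembly also called mm10, plus strand) around the site with the lowest log2 difference of a domain. They are from the described domains where that window holds the AP-1 word TGANTCA, and the word is in capitals. N stands for any base. The word thus takes in TGACTCA and TGAGTCA, the element bound by Fos and Jun proteins, and also TGAATCA and TGATTCA. Both marked copies in the Cntnap5a window are TGAATCA, and 1 in the Cntnap5b window is TGATTCA. The last 2 are the windows of the Dsel promoter, the most accessible site of all 826, and the Rgs2 promoter, which kept nearly all its accessibility, with CpG dinucleotides in capitals. The windows in the Elavl2 and Ncam2 domains reach beyond sites of 127 and 174 bases.
Cntnap5b domain, chr1:99095602-99095801: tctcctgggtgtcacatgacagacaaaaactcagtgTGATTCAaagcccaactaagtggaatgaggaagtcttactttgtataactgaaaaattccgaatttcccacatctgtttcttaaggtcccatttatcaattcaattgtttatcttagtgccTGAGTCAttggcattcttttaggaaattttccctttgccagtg
Cntnap5a domain, chr1:113288406-113288605: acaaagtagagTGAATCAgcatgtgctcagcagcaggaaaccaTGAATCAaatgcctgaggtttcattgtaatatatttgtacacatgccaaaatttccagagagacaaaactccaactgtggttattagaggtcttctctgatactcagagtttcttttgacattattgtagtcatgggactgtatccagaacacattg
Elavl2 domain, chr4:92104414-92104613: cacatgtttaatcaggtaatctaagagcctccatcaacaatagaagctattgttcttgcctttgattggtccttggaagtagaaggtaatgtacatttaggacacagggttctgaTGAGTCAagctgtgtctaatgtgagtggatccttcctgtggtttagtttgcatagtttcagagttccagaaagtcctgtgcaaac
Ncam2 domain, chr16:82431857-82432056: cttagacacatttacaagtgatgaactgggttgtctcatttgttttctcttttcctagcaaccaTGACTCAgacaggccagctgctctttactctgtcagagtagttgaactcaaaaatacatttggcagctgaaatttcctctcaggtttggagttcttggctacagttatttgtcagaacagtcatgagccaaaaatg
Dsel promoter, chr1:111864532-111864731: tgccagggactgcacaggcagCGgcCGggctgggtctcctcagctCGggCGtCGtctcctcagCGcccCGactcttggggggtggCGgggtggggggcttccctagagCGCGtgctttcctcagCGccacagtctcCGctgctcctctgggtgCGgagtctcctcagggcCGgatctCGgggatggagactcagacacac
Rgs2 promoter, chr1:144004128-144004327: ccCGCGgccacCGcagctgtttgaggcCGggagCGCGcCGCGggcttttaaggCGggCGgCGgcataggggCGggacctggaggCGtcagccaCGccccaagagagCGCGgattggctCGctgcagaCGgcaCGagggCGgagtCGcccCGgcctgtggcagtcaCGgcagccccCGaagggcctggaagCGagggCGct
The first 4 windows have a GC content of 38%, 38.5%, 41% and 40.5% and hold 1, 0, 0 and 0 CpG dinucleotides, with 2, 2, 1 and 1 copies of the AP-1 word. The Dsel window has a GC content of 69.5% and 15 CpG dinucleotides, and the Rgs2 window 74.5% and 26. Not shown is the window of the Tusc1 promoter, a stronger site than Rgs2, with 79.5% and 33. That site had 372 reads in HAT1 WT and 104 in HAT1 KO (log2 difference -1.84), so richness in CpG did not go with kept accessibility there. The lowest sites of the 9 described domains had windows of 35.5% to 45% GC, so these sites are AT-rich, while these promoter windows are rich in CpG.

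Genotype means of 10 fibroblast genes served as a check of the cell type. The most accessible promoter sites of Col1a1, Col1a2, Col3a1, Fn1, Vim, Thy1, Pdgfra, Pdgfrb, Twist1 and Prrx1 had 36.0 to 626 normalized reads in HAT1 WT cells and log2 differences of -0.32 to 0.78, and all 10 lay outside every run. The Hat1 promoter was at 206.5 reads in HAT1 WT and 239 in HAT1 KO cells (log2 difference 0.21), which is no check of the deletion, because accessibility of a promoter does not show whether the gene product is made.

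Chromosome 1 holds 4 domains, each named here by the longest protein-coding gene that overlaps it. The Adgrb3 domain (chr1:25185865-30720948, 5.54 Mb, 61 sites) contains Adgrb3, an adhesion G protein-coupled receptor of synapses, and 2 other coding genes. Its sites had a median of 16.2 reads in HAT1 WT and 6.41 in HAT1 KO cells, the summed reads of HAT1 KO were 47.0% of those of HAT1 WT, and the median log2 difference was -1.25. The Cntnap5b domain (chr1:98178720-105179876, 7.0 Mb, 76 sites) holds Cntnap5b, a contactin-associated protein of neurons, and Cdh20, a type II cadherin. There the medians were 15.4 and 5.41 reads, 47.7% of the reads were kept and the median log2 difference was -1.45. It ranged from -4.06 at a distal site (chr1:99095490-99095912, 29.0 reads in HAT1 WT and 1.74 in HAT1 KO, the first sequence above) to 1.2 at a site of 3.84 and 8.82 reads.

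The Cntnap5a domain (chr1:106932582-118288754) was the longest, with 11.4 Mb, 137 sites and 21 coding genes, from a cluster of clade B serpins at its left end to Cntnap5a near its right end. Its sites had a median of 14.1 reads in HAT1 WT and 5.50 in HAT1 KO, 38.3% of the reads were kept, and the median log2 difference was -1.47. Of its sites, 120 of 137 were lower in HAT1 KO, 92 by a log2 difference of -1 or less and 42 by -2 or less. The Brinp3 domain (chr1:144003464-148760120, 4.76 Mb, 90 sites) begins at Rgs2 and runs through a cluster of regulators of G protein signalling to Brinp3, a gene of the nervous system induced by BMP and retinoic acid. Its medians were 22.2 and 8.28 reads, 52.6% of the reads were kept and the median log2 difference was -1.05, so this domain had the highest median in HAT1 WT and kept the largest share.

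On chromosome 4, the Lingo2 domain (chr4:35894730-40135028, 4.24 Mb, 72 sites) is the shortest, and Lingo2, a leucine-rich repeat membrane protein of neurons, covers its left end. Median reads were 15 in HAT1 WT and 6.82 in HAT1 KO cells, 45.7% were kept and the median log2 difference was -0.94. The Elavl2 domain (chr4:89695688-94218012, 4.52 Mb, 57 sites) holds Elavl2, a neuronal RNA-binding protein, and Tusc1, a candidate tumour suppressor. Its medians were 17 and 7.94 reads, with 48.0% kept and a median log2 difference of -1.07. The Pcdh17 domain on chromosome 14 (chr14:80215463-85935403, 5.72 Mb, 52 sites) has 1 coding gene, the protocadherin Pcdh17, and the fewest sites of the 10. Its medians were 14.7 and 5.94 reads, with 43.2% kept and a median log2 difference of -1.10.

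The Slitrk5 domain (chr14:106795195-114854911, 8.06 Mb, 97 sites) carries Slitrk1, Slitrk6 and Slitrk5, synaptic adhesion proteins with leucine-rich repeats. Its medians were 16.5 and 5.98 reads and it kept 38.1% of the reads, the smallest share of the 10 domains, at a median log2 difference of -1.31. It also holds both extremes of all 826 sites, -4.17 at chr14:112603128-112603317 (16.3 reads in HAT1 WT and 0.908 in HAT1 KO) and 2.36 at chr14:111978254-111978374 (1.65 and 8.46 reads). The Ncam2 domain (chr16:78661088-84527013, 5.87 Mb, 78 sites) holds Ncam2, a neural cell adhesion molecule, and had medians of 13.4 and 6.45 reads, 40.6% kept and a median log2 difference of -1.10. Across the 10 domains the median log2 difference was -1.17 ± 0.19 (SD, n = 10 domains) and the kept share 45.3% ± 5.15.

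**Figure D1:**
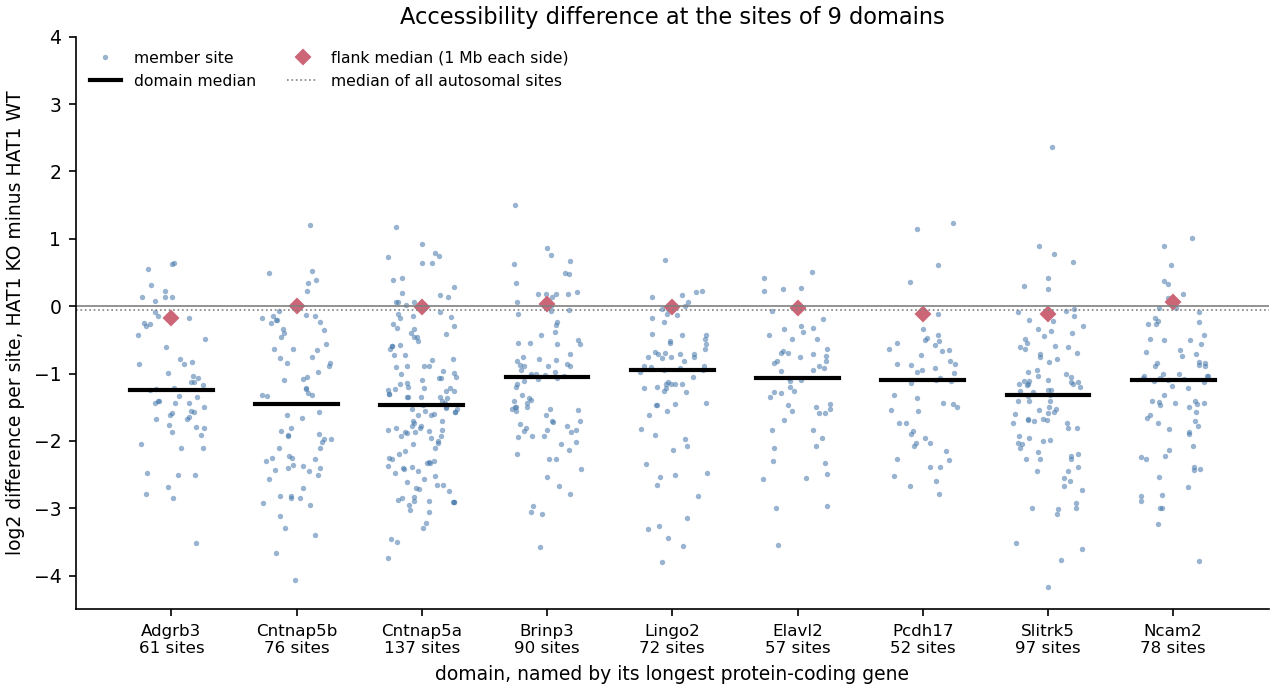
Log2 difference (HAT1 KO minus HAT1 WT) of each member site of the 9 described domains, with the domain median (bar), the median of the flanking sites within 1 Mb outside every run (diamond) and the median of all autosomal sites (dotted line, -0.06). The 9 domain medians sit between -1.47 and -0.94 and the 9 flank medians between -0.17 and 0.06, while single sites range from -4.17 to 2.36.

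The flanks, taken as 1 Mb on each side outside every run, kept 91.5% to 103.6% of their reads. Sites inside and beside the domains had similar median levels in HAT1 WT. The median over sites was 15.9 ± 2.52 reads inside and 14.9 ± 1.82 in the flank (SD, n = 10 domains). In HAT1 KO the values were 6.66 ± 1.04 inside and 13.6 ± 2.18 in the flank. Without sites within 3 kb of a transcription start, the HAT1 WT median over sites was 15.1 reads for all members and 13.2 outside every run. The rule uses both genotypes, so the choice of low differences bears on the HAT1 WT values inside as well. The gap between the 2 HAT1 KO values follows from the rule, which chose domains by the difference between genotypes. Since a peak has to be called before a site is tested, sites low in both genotypes may be missing from either set.

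Taking the 826 sites together, the median was 15.4 reads in HAT1 WT (quartiles 8.83 and 27.7) and 6.57 in HAT1 KO (quartiles 4.2 and 10.7). The share of sites at 16 reads or more was 48.7% in HAT1 WT and 12.1% in HAT1 KO, against 46.2% and 44.3% of the 220504 sites outside every run. The members' differences are a description of the choice and no support for it. A difference below 0 was found at 735 members (89%), where 55.1% of all autosomal sites are below 0. A difference of -1 or less was found at 481 (58.2%, all autosomal sites 5.12%) and of -2 or less at 185 (22.4%, all autosomal sites 0.519%). A difference of 1 or more was found at 8 members (0.969%), where 2.78% of all autosomal sites have one.

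The rule's thresholds had close neighbours. The moving mean at the first and last sites of the domains was -0.68 to -0.59, and at the sites just outside it was -0.58 to -0.48. The next shorter run, chr4:76650722-80641101, spanned 3.99 Mb with 43 sites and kept 43.1% of its reads, against 4.24 Mb and 45.7% for the Lingo2 domain just inside. The 83 runs of 1 to 4 Mb (2950 sites) kept 50.4% of their reads with a median log2 difference of -1.06, and the 163 runs under 1 Mb (1324 sites) kept 59.7% with -0.77. Sites outside every run kept 95.4%.

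**Figure D2:**
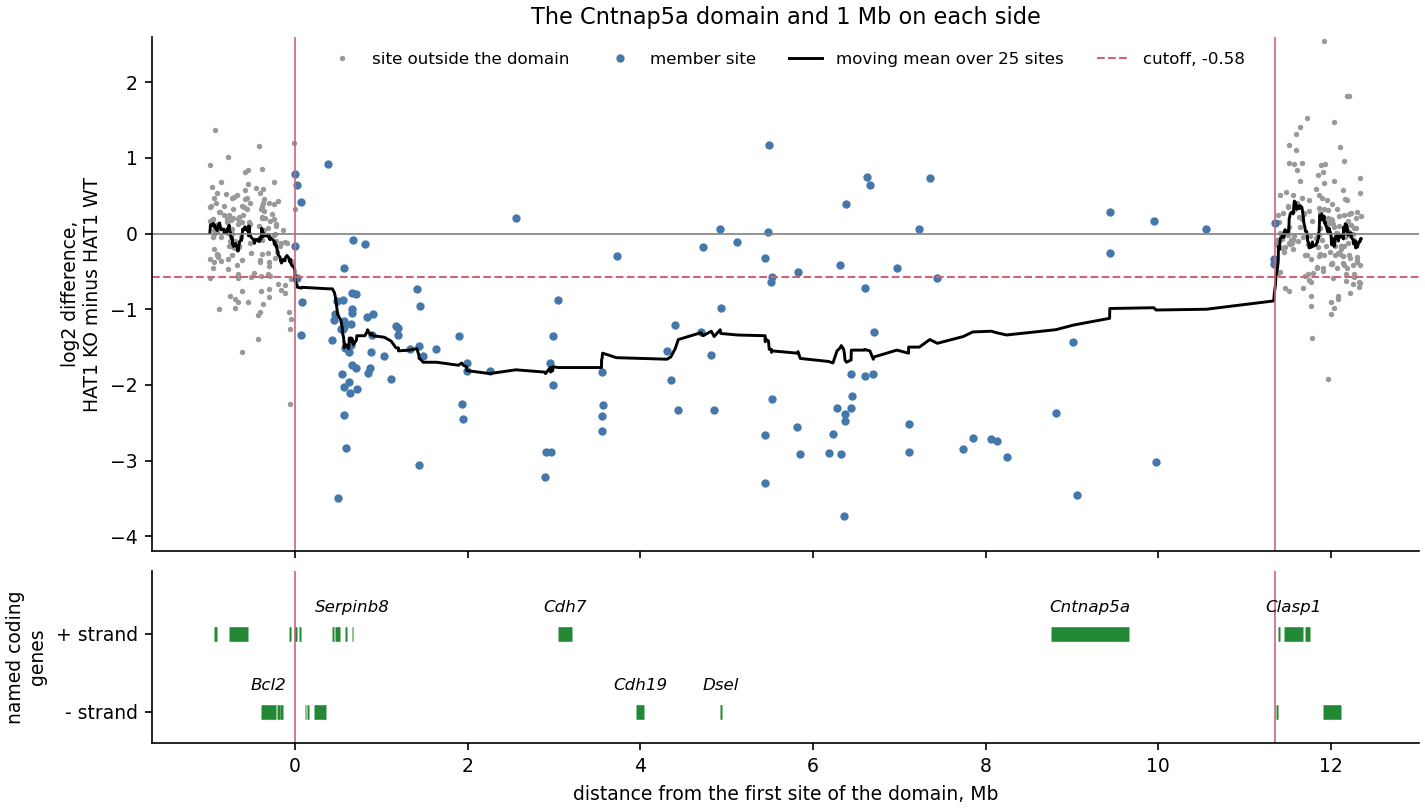
Log2 difference of each site along the Cntnap5a domain and 1 Mb on each side, by distance from its first site in Mb, with the moving mean over 25 sites, the cutoff and the named coding genes on each strand. The moving mean is near 0 in both flanks, drops to -1.85 at its lowest and returns at the right end, and the member sites of the right part of the domain lie far apart.

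Within a domain the sites were far from uniform in spacing. The median distance between neighbouring sites was 14.0 to 41.7 kb, and the widest gap inside a domain was 365 to 922 kb. In 7 of the 10 domains the widest gap exceeded 500 kb, so the joining distance of 1 Mb decides how many stretches reach 4 Mb.

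The difference was farther below 0 away from the ends. Sites over 0.5 Mb from both ends had a lower median log2 difference than the outer sites in 10 of 10 domains, by -0.55 ± 0.40 (SD, n = 10 domains). The gap was widest in the Cntnap5b domain (-2.06 for 48 inner and -0.74 for 28 outer sites) and in the Cntnap5a domain (-1.57 for 121 and -0.49 for 16). It was narrowest in the Ncam2 domain (-1.13 for 59 and -1.04 for 19). Since the ends are placed by the same moving mean, a smaller difference near them is in part built into the rule. The direction did not hold in every domain under other settings. With a moving median over 25 sites, inner sites were lower in 6 domains and higher in 3. With a cutoff of -0.7 the counts were 6 and 1, with a moving mean over 15 sites 7 and 1, and with an outer part of 1 Mb 9 and 1. Averaged over the 20 ends, with sites of neighbouring runs included outside, the mean log2 difference was -0.10 ± 0.42 between 200 and 100 kb outside (SD, n = 19 ends with sites) and -0.33 ± 0.39 in the last 100 kb outside (n = 18 ends). It was -0.56 ± 0.56 in the first 100 kb inside (n = 20 ends), -1.41 ± 0.75 at 500 to 1000 kb and -1.60 ± 0.70 beyond 2000 kb (n = 17 ends).

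**Figure D3:**
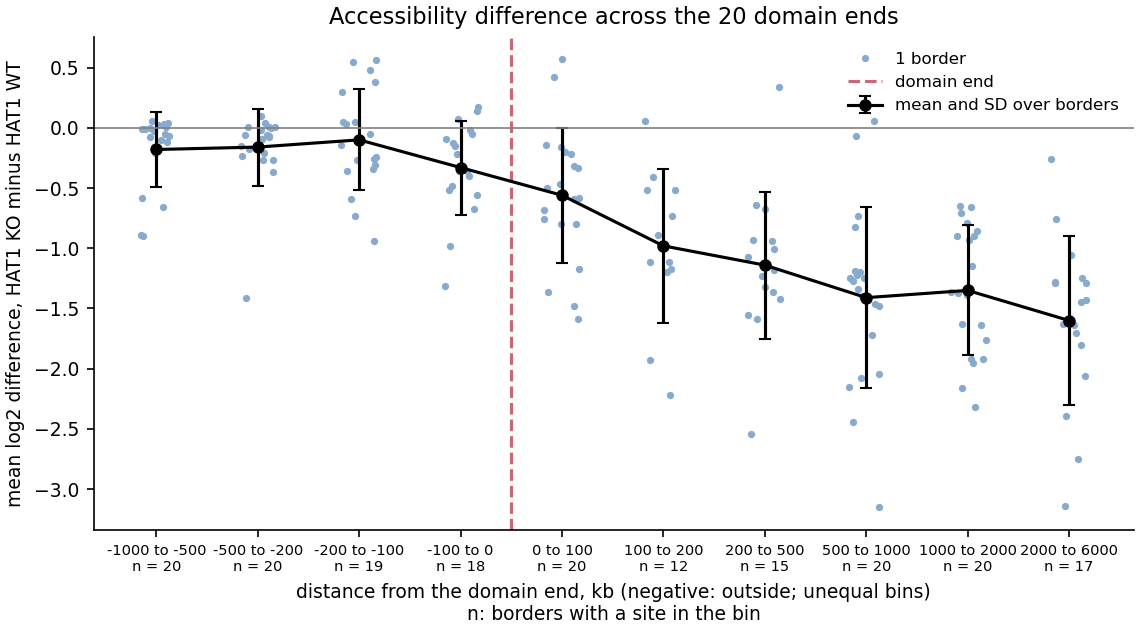
Mean log2 difference by distance from the domain end in kb (negative outside), 1 light point per domain end and the mean with SD over ends in black; the bins are unequal. The mean falls from -0.10 at 200 to 100 kb outside to -1.41 at 500 to 1000 kb inside, and single ends spread widely in every bin.

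The ends were not alike. On the right side of the Brinp3 domain the flank had only 12 sites per Mb, and its median log2 difference was -0.42, so accessible sites stay sparse beyond this end. Its nearest run, 14.4 kb away, lies on the left side. On both sides of the Cntnap5a domain the flank had 164 and 188 sites per Mb and medians of 0.01 and -0.03, against 12.1 sites per Mb inside. The change in site density was less abrupt on the left. There, 31 sites lay 500 to 1000 kb inside the end, and 1 site at that distance on the right.

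The sequence and gene measures that follow were not part of the rule. They are not fully apart from it, since a run of a given number of sites spans farther where sites are sparse, and site density, GC content and gene density go together. Each domain was more AT-rich than its own flank, with a GC content of 37.2% ± 0.596 against 41.0% ± 1.87, a difference of -3.73 ± 1.63 points that was below 0 in 10 of 10 domains. It was largest for the Cntnap5a domain (37.8% against 44.6%) and smallest for the Brinp3 domain (36.7% against 37.8%). Repeats, counted as soft-masked bases of the reference, made up 42.9% ± 2.23 of the domains and 34.6% ± 3.37 of the flanks, higher in 10 of 10 by 8.25 ± 4.53 points. The Cntnap5a domain had the widest gap (47.3% against 28.9%), and the smallest of the 10 gaps was 0.904 points. The GC content varied little among the domains, from 36.5% to 38.1%.

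Tested sites were sparse in every domain, at 13.9 ± 4.11 per Mb against 93.4 ± 38.4 in the flanks, lower in 10 of 10. The Pcdh17 domain was the emptiest with 9.09 per Mb, and the fullest of the 10 had 22.1. Since a peak has to be called before a site is tested, this counts sites that were accessible in some library. Gene starts of every type were at 7.14 ± 1.36 per Mb inside and 19.9 ± 7.25 per Mb in the flanks, also lower in 10 of 10, from 5.34 per Mb in the Slitrk5 domain to 9.40.

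**Figure D4:**
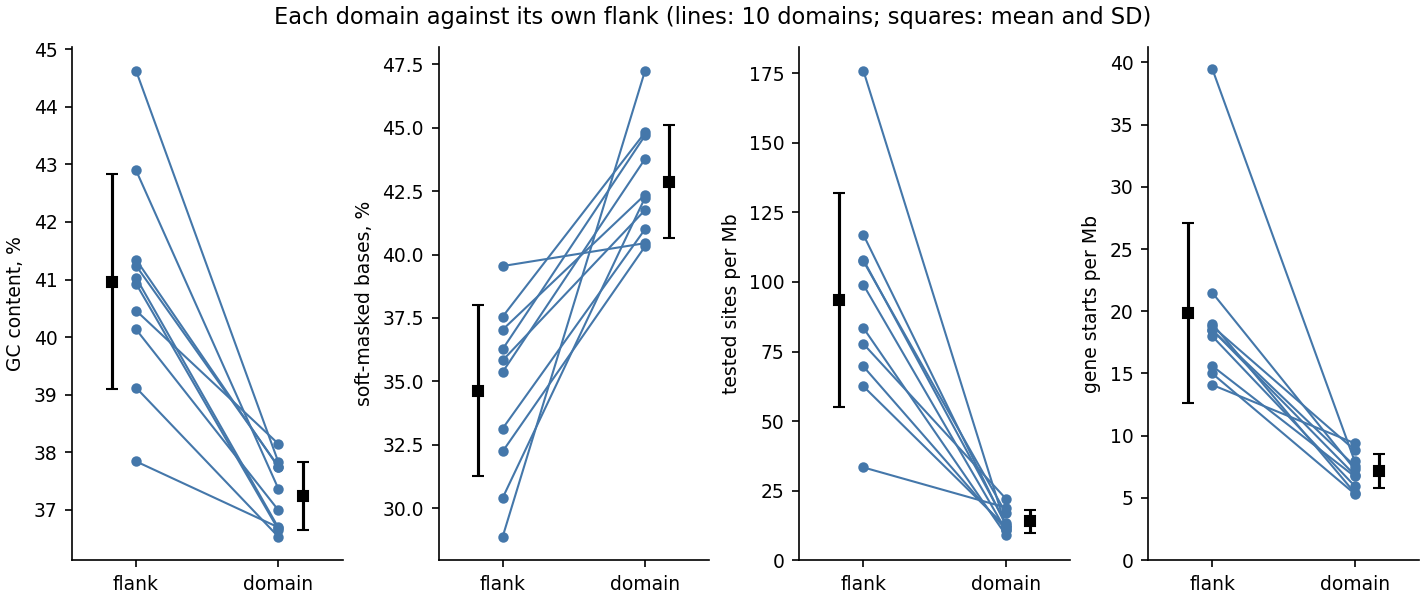
GC content, soft-masked bases, tested sites per Mb and gene starts per Mb in each of the 10 domains and in its own flank (lines), with the mean and SD over domains beside them (squares). In all 10 domains GC content, sites and gene starts are lower and soft-masked bases higher than in the flank; the mean GC content is 37.2% inside and 41.0% in the flank.

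In the domains, 436 annotated genes start. Only 55 of them (12.6%) are protein-coding, against 40.6% of all autosomal genes, and 214 (49.1%) are pseudogenes, against 22.6% of all autosomal genes. Processed pseudogenes, retrotransposed copies of mRNAs, account for 196 of these. The member sites followed this makeup. By position 570 of 826 (69.0%) were distal intergenic, 139 (16.8%) intronic, 102 (12.3%) within 3 kb of a transcription start and 15 (1.82%) exonic, where all autosomal sites are 32%, 36.7%, 28.3% and 3.05%.

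The families of adhesion, serpin, signalling and receptor genes listed here hold 1620 autosomal coding genes, of which 27 start in a domain. Over all autosomal coding genes, 55 of 20807 (0.264%) do. Of the 27, 10 are serpins and 5 are regulators of G protein signalling, each in 1 cluster. Of these families, which were chosen with earlier results known, 4 of 95 cadherins and protocadherins start in a domain (Cdh7, Cdh19, Cdh20 and Pcdh17), 2 of 13 contactins and contactin-associated proteins (Cntnap5a and Cntnap5b), 4 of 12 Slitrk, Lrrtm and Lingo genes (Slitrk1, Slitrk5, Slitrk6 and Lingo2), 1 of 7 Ncam, Robo and Dcc genes (Ncam2) and 1 of 25 adhesion G protein-coupled receptors (Adgrb3). No glypican (of 4) and no olfactory or vomeronasal receptor (of 1414) starts in one. Clade B serpins, intracellular inhibitors of proteases, had 10 of 26 members there, all in 1 cluster at the left end of the Cntnap5a domain, and regulators of G protein signalling, which speed GTP hydrolysis by G proteins, had 5 of 24, all at the left end of the Brinp3 domain.

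Bodies of protein-coding genes held 178 of the 826 sites. Lingo2 (chr4:35706647-36951747, 1245 kb, minus strand) had 33 sites in its body, the most of any gene described. In Lingo2 the median was 17.1 reads in HAT1 WT and 11.6 in HAT1 KO with a median log2 difference of -0.77, from -2.34 to 0.22. This median was closer to 0 than that of all members. Cntnap5b was farther from 0, with 15.3 and 4.91 reads over 12 sites and a median log2 difference of -1.91, and so was Brinp3 (22.6 and 8.40 reads, 7 sites, -1.43). Adgrb3 had 13.9 and 6.82 reads over 10 sites (-0.89), Ncam2 19.2 and 8.78 over 8 sites (-0.88), Cdh20 15.5 and 7.04 over 10 sites (-1.08) and Cntnap5a 8.17 and 4.72 over 5 sites (-1.43). Elavl2 stood at the other end with 8.82 and 7.16 reads over 5 sites and -0.33.

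The promoters of these genes ranged from weak to among the most accessible sites. At the Pcdh17 promoter (chr14:84443014-84443877) the level was 331 reads in HAT1 WT and 184 in HAT1 KO (log2 difference -0.85), and at the Elavl2 promoter (chr4:91376364-91376977) 298 and 193 (-0.63). At the Slitrk5 promoter (chr14:111675114-111676301) it was 109 and 50.6 (-1.11), at the Lingo2 promoter (chr4:36950168-36951007) 89.3 and 54.6 (-0.71) and at the Ncam2 promoter (chr16:81200210-81201048) 64.9 and 35.5 (-0.87). Weaker were the strongest promoter sites of Brinp3 (42.5 and 13.8 reads, -1.62) and Adgrb3 (33.1 and 14.7, -1.17), and those of Cntnap5b (16 and 5.39, -1.57), Cdh20 (13.6 and 8.75, -0.64) and Slitrk1 (13 and 7.94, -0.71) were near or below the median member. Cntnap5a had no promoter site. The Slitrk6 promoter had the lowest difference of these, with 35 and 5.28 reads (-2.73). Cdh19 had no site in its body or promoter, and the single site of Cdh7 stood at 11.2 and 6.11 reads (-0.88).

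In the serpin cluster the site at the Serpinb8 promoter (chr1:107589724-107590455) was the strongest, with 201 reads in HAT1 WT and 60.1 in HAT1 KO (log2 difference -1.74). Serpinb2, the plasminogen activator inhibitor of type 2, had 16.8 and 5.90 reads at its promoter (-1.51), and Serpinb7 15 and 7.21 (-1.06). Serpinb12, at the very end of the domain, was higher in HAT1 KO, with 10.5 and 18.1 reads (0.79). No site fell in the body or promoter of Serpinb3a, Serpinb3b, Serpinb3c or Serpinb3d, close copies side by side, at which counts of short reads are uncertain. In the cluster of regulators of G protein signalling, the Rgs2 promoter (chr1:144003873-144004582), 0.409 kb from the end of the domain, stood at 324 reads in HAT1 WT and 300.2 in HAT1 KO (-0.11). Rgs1 had 26.9 and 15.2 at its promoter (-0.82), Rgs18 19.3 and 13.1 (-0.56), and the body of Rgs13 a median of 25.5 and 6.41 over 3 sites (-1.77). The strongest promoter of the cluster thus had a difference near 0, while intergenic sites between these genes were far lower, such as chr1:144306249-144306765 with 76.6 and 9.06 reads (-3.08) and the lowest site of the domain, chr1:144431591-144431788, with 22.6 and 1.91 reads (-3.57).

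Over all 55 coding genes, 33 had a member site in their body, and the median log2 difference over those sites was below 0 in 31 (93.9%, against 61.1% of the 17073 autosomal coding genes with a site in the body). A site within 3 kb of a start was found for 28, of which the strongest was below 0 in 26 (92.9%) and at -1 or less in 13 (46.4%), against 65.5% and 1.47% of the 17018 autosomal coding genes with such a site. The domains were chosen for low differences, so these counts describe the choice and support nothing. Within domains, the direction for promoter sites depended on the starts and sites counted. With starts of protein-coding transcripts only, promoter sites were above the others in 8 domains and below in 2 (0.28 ± 0.25, SD, n = 10 domains). Without the 25% of sites with the lowest mean of both genotypes, they were above in 9 domains and below in 2 (0.41 ± 0.59, SD, n = 11 domains). The median log2 difference of promoter sites, taken over genes of every type, was above that of the other sites in 6 domains and below it in 4 (0.11 ± 0.33, SD, n = 10 domains), from higher in the Pcdh17 domain (-0.60 for 4 promoter sites and -1.23 for the others) to lower in the Slitrk5 domain (-1.67 and -1.27).

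Strong sites were few. Of 52 members with 64 or more reads in HAT1 WT, 33 had a log2 difference of -1 or less and 6 kept over 80% of their reads. Of all autosomal sites, at any level, 5.12% had -1 or less, and the shares among strong sites alone are not given here. Outside every run, sites with a mean of both genotypes of 64 or more reads had a median log2 difference of -0.08 and kept 95.5%. The domains were chosen for low differences, so these counts describe the choice. The strongest was the promoter of Dsel, a dermatan sulfate epimerase-like gene (chr1:111864056-111865207), 4.93 Mb from the first site of the Cntnap5a domain, with 867 reads in HAT1 WT and 437 in HAT1 KO (-0.99). The Tusc1 promoter (chr4:93334552-93335910) had 372 and 104 reads (-1.84). A distal site of the Lingo2 domain (chr4:39928407-39928832), with the AP-1 word, had 95 reads in HAT1 WT and 9.65 in HAT1 KO (-3.30). A distal site of the Ncam2 domain (chr16:79590893-79591581) had 172 and 56.5 (-1.61).

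Of the 6 strong sites that kept over 80%, 4 lie in described domains. Near a domain end were the Rgs2 promoter and an exonic site of the Cntnap5b domain (chr1:98189826-98190521, 115 and 97.7 reads, -0.23) 11.1 kb from its end. The remaining pair lay deep inside. The promoter of 4931408C20Rik in the Adgrb3 domain (chr1:26686828-26688436, 156.5 and 148 reads, -0.08) was 1501 kb from the nearest end, and an intronic site of Cntnap5b (chr1:100180053-100180460, 307 and 278 reads, -0.14) was 2001 kb from it. The nearest members on each side of this Cntnap5b site, at chr1:100171562-100171921 and chr1:100232010-100232232, had log2 differences of -1.90 and -1.92. The 4931408C20Rik promoter lies beside a pair of sites at 0.23 and 0.31, while the pair of members after the next on its right had -1.67 and -1.61. These sites were picked out by their values.

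Sites that were not lower in HAT1 KO numbered 91 (11.0%). Most were weak, with a median of 5.58 reads in HAT1 WT and 7.94 in HAT1 KO, 62 of them under 8 reads in HAT1 WT and none above 57.3. They included 14 sites within 3 kb of a start, and 42 lay within 0.5 Mb of a domain end, where 249 of all members lie. At such levels the difference rests on few reads, and the spread between lines is not known here.

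The difference varied with the level and the width of the site. Among members with a mean of both genotypes under 8 reads (267 sites) the median log2 difference was -0.83, and it was -1.25 at 8 to 16 reads (296 sites), -1.49 at 16 to 32 (179 sites), -1.25 at 32 to 64 (54 sites) and -0.87 at 64 or more (30 sites). Outside every run the medians of the same classes were between -0.09 and 0.02. Sites narrower than 150 bases had a median of -0.61 (143 sites), those of 150 to 250 bases -1.09 (289 sites) those of 250 to 500 bases -1.42 (312 sites), those of 500 to 1000 bases -1.41 (77 sites) and those of 1000 or more -1.11 (5 sites). Members in which 50% or more of the central 200 bases were soft-masked were 7.39% of all, against 4.22% outside every run, and had a median of -1.29 (61 sites), against -1.16 for the other 765.

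The base composition of the site itself went with the size of the difference. The median GC content of the central 200 bases was 43.0% for members and 50.0% outside every run. Members under 40% GC had a median log2 difference of -1.57 and kept 35% of their reads (231 sites). At 40 to 45% GC the values were -1.45 and 38.2% (248 sites), at 45 to 50% -1.03 and 52.5% (209 sites), at 50 to 55% -0.55 and 59.9% (83 sites), and at 55% or more -0.78 and 55.6% (55 sites). Outside every run the medians of the same classes lay between -0.16 and -0.02. In 9 of 10 domains sites under 45% GC had the lower median, by -0.68 ± 0.33 over the 10 domains (SD), with -1.50 against -0.55 in the Adgrb3 domain.

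The AP-1 word was more common at the domains' sites than beside them. It was present on either strand, being its own reverse complement, in the central 200 bases of 36.0% ± 3.11 of the sites of a domain and 24.0% ± 3.66 of the flank sites, higher in 10 of 10 domains by 12.1 ± 3.57 points (SD, n = 10 domains). Of all 826 members 297 (36.0%) held it, of all autosomal sites 22.9%, and of the sites in runs of 1 to 4 Mb 36.5% and of those in runs under 1 Mb 30.8%. Without sites within 3 kb of a start the shares were 38% of members and 25.5% outside every run. The word is itself AT-rich, and its share was higher in AT-rich windows both inside and outside the domains. In windows under 40% GC it was in 45.5% of members and 38% of the sites outside every run, at 40 to 45% in 46.8% and 33.9%, at 45 to 50% in 29.2% and 27.7%, at 50 to 55% in 14.5% and 20.2%, and at 55% or more in 5.45% and 9.77%. Weighting the sites outside every run to the members' GC classes gave 30.5%, so the gap of 13.3 points narrowed to 5.48. The part of base composition within these classes was not tested. TGACTCA and TGAGTCA were not counted apart from TGAATCA and TGATTCA, so these shares are not those of the Fos and Jun element alone.

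**Figure D5:**
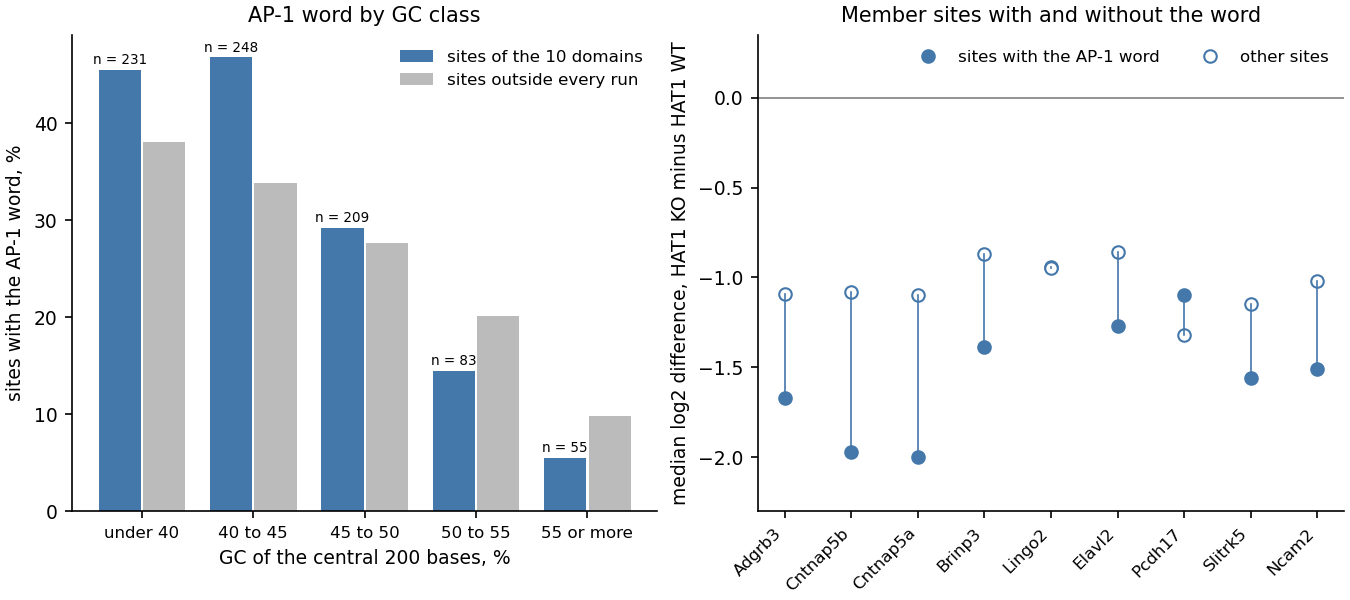
Left, share of sites with the AP-1 word by GC content of the central 200 bases, for the domains' sites (blue, n above the bars) and the sites outside every run (grey). Right, median log2 difference of the sites with the word (filled) and of the other sites (open) in each of the 9 described domains; the filled point is lower in 7 of them, and the shares on the left range from 46.8% of members at 40 to 45% GC to 5.45% at 55% or more.

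Member sites with the word had a lower median log2 difference than the others in 7 of 10 domains, by -0.39 ± 0.38 over the 10 domains (SD). The gap was widest in the Cntnap5a domain (-2 and -1.10) and the Cntnap5b domain (-1.97 and -1.08), whose lowest sites are the first pair of sequences above. In 3 domains, Lingo2 and Pcdh17 among them, the median of the sites with the word was higher, in the Pcdh17 domain at -1.10 against -1.32. Base composition moved with this as well. Under 40% GC the medians with and without the word were -1.56 and -1.58, at 40 to 45% -1.60 and -1.19, and at 45 to 50% -1.20 and -0.96.

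Other words were searched in the same windows, on both strands, with the share of all autosomal sites given for comparison. GGAATG, the core bound by TEAD factors, was in 17.8% of members and 15.5% of all autosomal sites, and TGTGGT, bound by RUNX factors, in 21.5% and 19.6%. The E-box CAGCTG was in 12.0% and 16%, and the CArG box of the serum response element in 3.75% and 5.31%. The CTCF core word was in 3.51% and 2.87%, and the palindromic NFI word in 0.121% and 0.0341%, a single member. None of these differed from the rest of the autosomes by as much as the AP-1 word. Among members the medians with and without a word were -1.26 and -1.15 for TEAD and -1.17 and -1.19 for RUNX. A match is a string of letters and not a measured site of binding.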

How the data were processed

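ATAC-Seq was measured in 3 HAT1 WT and 3 HAT1 KO primary MEF lines. The authors processed the reads with the ENCODE ATAC-Seq pipeline, aligned them to mm10 with bowtie2, called peaks with MACS2 and ran DiffBind 2.14.0. The library normalization, the consensus rule for sites and the pooling of replicates for peak calls are not given in the sources used here. The values used are the log2 mean normalized reads of each genotype as deposited, rounded by the authors to 0.01. The deposited log2 fold change, p-value and FDR columns are the authors' comparisons and were not used. No other column was left unmapped (0). The depth of a single line is unknown, so no counting interval is given.

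The log2 difference is HAT1 KO minus HAT1 WT, and reads kept are the summed linear means of HAT1 KO as a percent of HAT1 WT. The reference was GRCm38 with GENCODE vM21, and site ends were checked against chromosome lengths. A promoter site lies within 3 kb of a transcription start of any type, and other sites were classed by their midpoint. The AP-1, CTCF, loose CArG and NFI words were searched by their letters with free positions, at which any base was allowed. Named genes were, in each domain, the coding gene with the most sites, the longest coding gene and the members of the listed families, and named sites were the most accessible, the lowest and the highest. One gene and the results of its domain are not reported here, and that domain enters only counts, means and ranges. The strong sites that kept over 80% and other genes were chosen after their values were seen. The members, the lists and the measures were chosen with earlier results of these data known. The code of the domain rule was run on simulated data with planted domains of uniform shift and noise independent between sites. This checks the code and not the domains called here. Python 3.11.15, numpy 2.4.6, pandas 2.3.3 and matplotlib 3.10.9 were used.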

Additional observations from a re-analysis of the deposited data

How the results depend on the processing

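No paired analysis was possible because only genotype means were used, with no value for a line and no test, and for the same reason no line was left out. The number of domains followed the limits set for a run. With gaps of at most 0.5 Mb, 3 domains of 17.1 Mb in all were left, and over these the promoter sites turned from above to below the other sites (log2 -0.04). A span of 3 Mb or more gave 23 domains of 107 Mb, and one of 5 Mb or more gave 6. A moving mean over 51 sites gave 14 domains that kept 51.1% of their reads. With protein-coding genes only, gene starts per Mb differed from the flank by -5.40. With a window of 100 bases the AP-1 share exceeded the flank by 8.33 points, again in 10 of 10 domains. It was higher in 9 of 10 domains with a window of 300 bases or a flank of 0.5 Mb, and in 21 of 23 with a span of 3 Mb or more. The other 129 of 138 values over 20 settings moved by less than the spread over domains or by less than 1.5 times; one of these settings, the AP-1 share without promoter sites, was added after the data were seen. Leaving out each domain in turn moved the kept share between 44.0% and 46.6%, the GC difference between -4.01 and -3.38 points and the AP-1 difference between 11.5 and 12.7 points, and none of these 90 values moved by more than the spread over domains. Weak sites are limited by depth, since 267 members had a mean under 8 reads.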

Other observations

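AT-rich and sparse chromatin outside the domains was looked at in bins of 1 Mb with a GC content of at most 38.1% and 5 to 22 sites, the highest values of the 10 domains. Of 207 such bins on the autosomes, 34 lay mostly in a very long domain, with a median over bins of the mean log2 difference of -1.35 and 40.2% of the reads kept. A further 83 lay mostly in a shorter run (-1.02, 48.9% kept). The other 90 bins, mostly outside every run, had a median of -0.39 with 80% of the reads kept, and 85 of the 90 were below 0, from -1.65 to 0.33. The share below 0 among bins beyond these limits is not given here, and 55.1% of single autosomal sites were below 0. Over all 207 bins within these limits the mean log2 difference ranged from -2.87 to 0.33. The limits did not match the groups, since the median GC content was 36.5% in the very long domains and 37.2% mostly outside every run. What part composition and site density have in the difference was not tested. The bins were sorted by the same differences that define the runs, so these medians are a description with no test.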
